A study of Mus musculus with 12 samples.

Results

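The genotype comparison in the tumor-draining lymph node (TDLN) set CD8 T cells from mice with a CD8-specific knockout (KO) of TrIP against the same cells from wild-type (WT) mice. It rests on the 6 libraries whose labels give this tissue, 3 KO and 3 WT, out of 12 libraries in the series, and covers all genes. The other 6 libraries are tumor samples of the same genotypes and enter below only in the test of whether the genotypes differed alike in both tissues. Mice of both genotypes had been injected with MC38, a mouse colon carcinoma line, and cells were taken on day 10. Cells of both groups were CD8-positive and were sorted with an Rpl18 tetramer, which binds T cells whose receptor fits that antigen. The KO libraries are numbered 1, 2 and 3 and the WT libraries 1, 3 and 4. The labels do not say which Cre line or which exons were used, nor whether each library is from 1 mouse, so the p-values measure only the spread between these libraries, which may be technical in part.

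TrIP is the transmembrane protein encoded by Pik3ip1, and it binds the catalytic subunit of PI3K and restrains it. PI3K makes the membrane lipid that recruits AKT when the T-cell receptor, CD28 or cytokine receptors are engaged. AKT keeps FOXO1 out of the nucleus and feeds the kinase complex mTORC1, so this axis is known for moving activated T cells from a resting, node-homing program to growth, glycolysis and effector function. In a draining node, CD8 T cells meet antigen on dendritic cells, divide, and acquire or hold back effector features.

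Values were normalized counts, which are read counts per gene scaled for depth by the submitters, for 26962 genes. Depth, estimated from the value of 1 read, was 22.2 M to 30.9 M per library. Of these genes, 14709 had a mean of at least 1 CPM (count per 1 M of the column total) over the 6 libraries and were tested with limma on log2(value + pseudocount), with a pseudocount of 1 CPM, 23.8 normalized counts. Differences below are KO minus WT on that scale, which understates the change of low genes. The cells carried the transcripts of their label. CD8a, CD8b1, CD3 chains and other CD8 T-cell markers took up 0.404% to 0.5% of all values in KO and 0.371% to 0.651% in WT, while Cd4 stood between 0.876 and 23.6 in the 6 libraries.

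Before any genotype difference, 1 library in each group stood apart. KO replicate 3 held 3845 normalized counts of Xist, the RNA of the inactive X chromosome, and WT replicate 3 held 3552, against at most 1.55 in the other 4 libraries. Both were listed at 0 for the Y-linked genes Ddx3y, Eif2s3y, Kdm5d and Uty, which the other 4 libraries expressed. Ddx3y was 2220 and 3591 in KO replicates 1 and 2 and 2165 and 283 in WT replicates 1 and 4, so that WT replicate 4 was low for this gene, although its Eif2s3y stood at 1825. The leading principal component of the 6 libraries held 38.1% of the variance. On it WT replicate 3 lay at -50.8 and KO replicate 3 at -18.4, against 10.5 and 18.4 in the other KO libraries and 17.4 and 22.9 in the other WT libraries. On the next component, with 26.5%, KO replicate 3 lay at -43.8 and the others between -6.3 and 23.4. Of all 14709 tested genes, WT replicate 3 was the highest library for 4006 and the lowest for 4031. KO replicate 3 was the highest for 3048 and the lowest for 3134, and WT replicate 4 for 2104 and 2169. The counts of highest and lowest libraries in the lists below stand against these. Library pairs across genotypes resembled each other as closely as pairs within one: KO 1 and KO 2 had a Pearson correlation over log2 values of 0.982, and KO 1 and WT 1 also 0.982. Each genotype thus has 1 library bearing Xist, and the plot of gene lists gives the median of every list shown there also without both of these libraries.

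Pik3ip1 (ENSMUSG00000034614, chromosome 11, 3330401 to 3342971, plus strand, GRCm38, as placed by GENCODE M21, which may not be the annotation the submitters used) had 854, 1009 and 1573 normalized counts in KO libraries, against 607, 1095 and 834 in WT libraries. The groups overlap, and the libraries labelled KO did not hold less of the transcript. The log2 difference was 0.42 (SE 0.28, 95% interval -0.22 to 1.05, limma adjusted p = 1), and it stayed between 0.17 and 0.62 when each library was left out in turn. A value summed over the whole gene does not show the loss of a few exons, and the deleted part is not given in the sources used here, so KO is the label of these libraries.

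No gene passed the threshold. At an adjusted p under 0.05 limma called 0 of 14709 genes. An unadjusted p under 0.05 was found for 277 genes (1.88%), of which 136 (0.925%) were higher and 141 (0.959%) lower in KO. When no gene differs, this threshold lets through a share of 0.05 on average, and 1.88% is below that. The smallest adjusted p was 0.9. The 3 KO libraries lay above all 3 WT libraries for 472 genes (3.21%) and below them for 493 (3.35%), together 965 (6.56%). The log2 difference was above 0 for 50.3% of genes and below 0 for 49.7%. A difference of 1 or more was seen for 79 genes (0.537%) and of -1 or less for 37 (0.252%). The precision depends on the level. The 95% interval lay within -1 and 1, that is within 2-fold on the scale with the pseudocount, for 11698 genes (79.5%). The share was 61.6% at a mean of 1 to 10 CPM, 90.3% at 10 to 100 CPM and 96.4% at 100 CPM or more. Where it did, a 2-fold difference on this scale, in either direction, lies outside the interval. At low levels a 2-fold difference in the normalized counts themselves can still lie inside it.

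**Figure D1:**
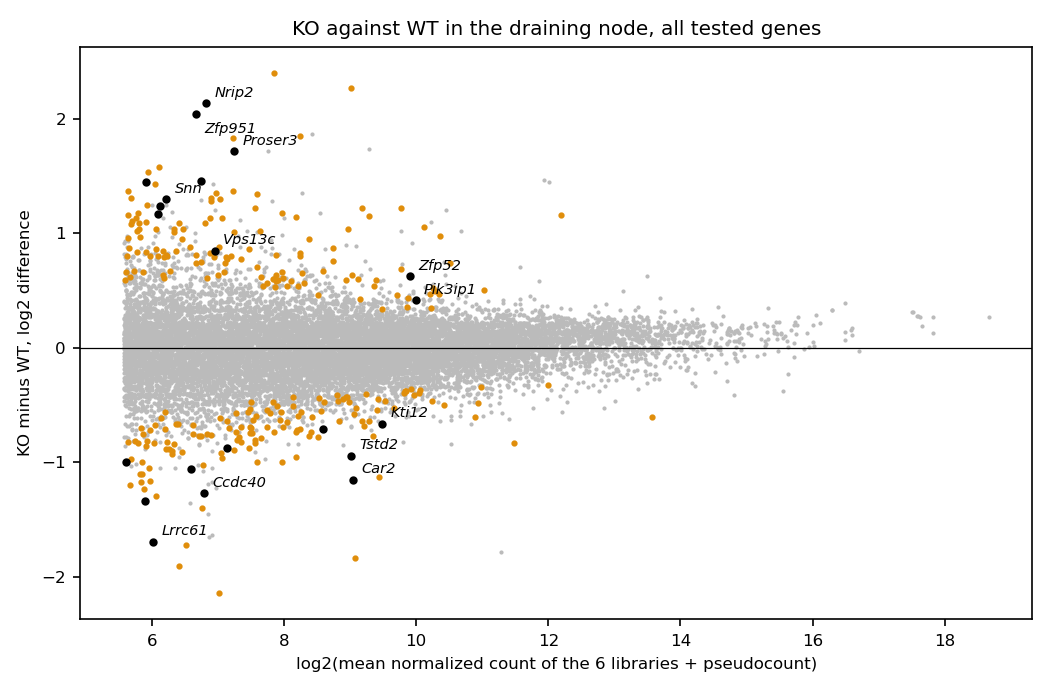
Each point is 1 of the 14709 tested genes, with log2(mean normalized count of the 6 libraries + pseudocount) on the x axis and the KO minus WT log2 difference on the y axis; orange points are the genes at an unadjusted p under 0.05, and black points are Pik3ip1 and the 20 genes of smallest p, 10 on each side. Points spread widely at the left and narrow to the right, and Pik3ip1 lies at 0.42.

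The genes with the smallest p are given here as values, since none passed. Proser3 had 211, 180 and 236 normalized counts in KO libraries, against 59.5, 32.5 and 49.9 in WT libraries (log2 1.72, SE 0.25, limma adjusted p = 0.9). Zfp951, a zinc finger gene, had 146, 130 and 139 in KO libraries, against 2.02, 26.8 and 22.8 in WT libraries (log2 2.04, SE 0.31, adjusted p = 0.9). Nrip2, which encodes a nuclear receptor interacting protein, had 88.2, 205 and 192 in KO libraries, against 10.1, 12.2 and 28.9 in WT libraries (log2 2.14, SE 0.34, adjusted p = 0.995). In each of the 3 the lowest KO library lay well above the highest WT library, and leaving out any 1 library kept the differences between 1.56 and 1.85, 1.74 and 2.21, and 1.96 and 2.47 in the order named. The others of the 10 on this side were Snn (1.30), Ciita (1.24), Trim2 (1.45), the zinc finger genes Zfp286 (1.17) and Zfp52 (0.63), Ly86 (1.46) and Vps13c (0.85), each with the KO libraries above the WT libraries and an adjusted p of 1. Ciita, the master switch of MHC class II transcription, and Ly86, a partner of CD180 on B cells, return below with the B-cell markers.

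On the other side the smallest p belonged to Ccdc40, a gene of motile cilia, with 48.7, 32.9 and 41.3 normalized counts in KO libraries, against 141, 150 and 107 in WT libraries (log2 -1.27, SE 0.24, limma adjusted p = 1). Tstd2 had 397, 283 and 308 in KO libraries, against 630, 774 and 553 in WT libraries (-0.94, SE 0.21). Car2, a cytosolic carbonic anhydrase, had 188, 390 and 363 in KO libraries, against 782, 731 and 584 in WT libraries (-1.15, SE 0.28). None of these overlapped between the genotypes. Others were Lrrc61 (-1.69), Kti12 (-0.66), Txndc11 (-0.71), Samd10 (-0.87), the peptide transporter gene Slc15a2 (-1.34) and Rgs12, a regulator of G-protein signaling (-1.0), all with adjusted p = 1. Of these, Lrrc61, Slc15a2 and Rgs12 were near 0 in KO libraries, with at most 27.9 normalized counts.

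The 20 genes of smallest p, 10 on each side, lie on 12 chromosomes of GRCm38. Ciita (chromosome 16, 10480059 to 10528418, plus strand), Snn (11060945 to 11074985, plus strand) and Txndc11 (11074911 to 11134650, minus strand) are neighbours within a short stretch, with 533 kb between the end of Ciita and the start of Snn. Snn and Txndc11, which differed in opposite directions, overlap by 75 bases at their ends, and since it is not stated whether reads were counted by strand, reads in the overlap could belong to either. Around Pik3ip1, 88 other tested genes start within 10 Mb. Of these 88, 4 had an unadjusted p under 0.05, a larger share than the 1.88% of all tested genes. The difference in share was not tested. Chromosome 11 as a whole held 7.28% of the tested genes and 6.16% of those with p under 0.05.

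Transcripts of PI3K subunits, taken as a list, lay slightly lower in KO. The list includes Pik3c3 and Pik3r4, which belong to the class III PI3K, a separate enzyme. Of 11 genes for catalytic and regulatory subunits, 8 were tested, 7 had a log2 difference below 0 and 0 were called, with a median of -0.09 against 0 for all genes. Together the 11 took up 0.0234% to 0.0259% of all values in KO libraries and 0.0263% to 0.0282% in WT libraries. These ranges do not overlap, by a narrow margin, and the difference in share was not tested. Pik3r1, which encodes the p85 alpha regulatory subunit and its shorter forms, had 753, 788 and 774 normalized counts in KO libraries, against 910, 887 and 907 in WT libraries (log2 -0.22, SE 0.14, limma adjusted p = 1). The spread within each genotype was small, and each KO library lay below each WT library. This held for 1 of the 8 tested, where 3.35% of all tested genes had it. Pik3cd, the catalytic subunit p110 delta that dominates in lymphocytes, had 1991, 1725 and 1918 in KO libraries, against 1932, 2301 and 1853 in WT libraries, which overlap (-0.11, SE 0.15). Pik3ca (-0.04), Pik3cb (-0.45), Pik3cg (-0.04), Pik3c3 (-0.19), Pik3r4 (0.00) and Pik3r5 (-0.07) overlapped as well, and Pik3r2, Pik3r3 and Pik3r6 had means under 1 CPM and were not tested.

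Among the brakes of the pathway, Phlpp2, a phosphatase of AKT, had 104, 115 and 84.5 normalized counts in KO libraries, against 149, 189 and 198 in WT libraries (log2 -0.69, SE 0.22, limma unadjusted p = 0.0141, adjusted p = 1). Its groups were separate, and without each library in turn the difference stayed between -0.81 and -0.60. KO libraries lay below WT libraries for 2 of the 12 brakes and adaptors tested, where 3.35% of all tested genes had this. The related Phlpp1 (-0.13), the lipid phosphatases Inpp5d (-0.18), Inpp4a (-0.07) and Inpp4b (0.17) overlapped, and Inppl1 was too low to test. Of the receptors and adaptors that recruit PI3K, Cd28 (-0.01), Icos (-0.12), Pik3ap1 (-0.35), Gab3 (0.19) and Trat1 (0.73, SE 0.76) overlapped, and Gab2 was too low. The median of the 12 brakes and adaptors tested was -0.09, and 0.04 without the libraries bearing Xist.

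Downstream, the AKT and mTOR list had 22 tested members, 12 above 0 and 10 below, with a median of 0.01 and 0 calls. Akt1 had 827, 832 and 662 normalized counts in KO libraries, against 990, 852 and 982 in WT libraries (log2 -0.28, SE 0.16, limma adjusted p = 1). Tsc2, part of the complex that holds mTORC1 off, had 138, 144 and 150 in KO libraries, against 184, 237 and 178 in WT libraries (-0.40, SE 0.21). Sesn3, a sestrin induced by FOXO factors that dampens mTORC1, had 1147, 1081 and 1474 in KO libraries, against 980, 1074 and 692 in WT libraries (0.43, SE 0.21). In these 3, picked after their values were seen, the groups did not overlap, by a narrow margin in Akt1 and Sesn3. Of the 22, 2 had KO libraries above WT libraries and 2 below, where 3.21% and 3.35% of all tested genes did. Mtor itself had 288, 257 and 277 in KO libraries, against 298, 276 and 289 in WT libraries (-0.07, SE 0.18).

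**Figure D2:**
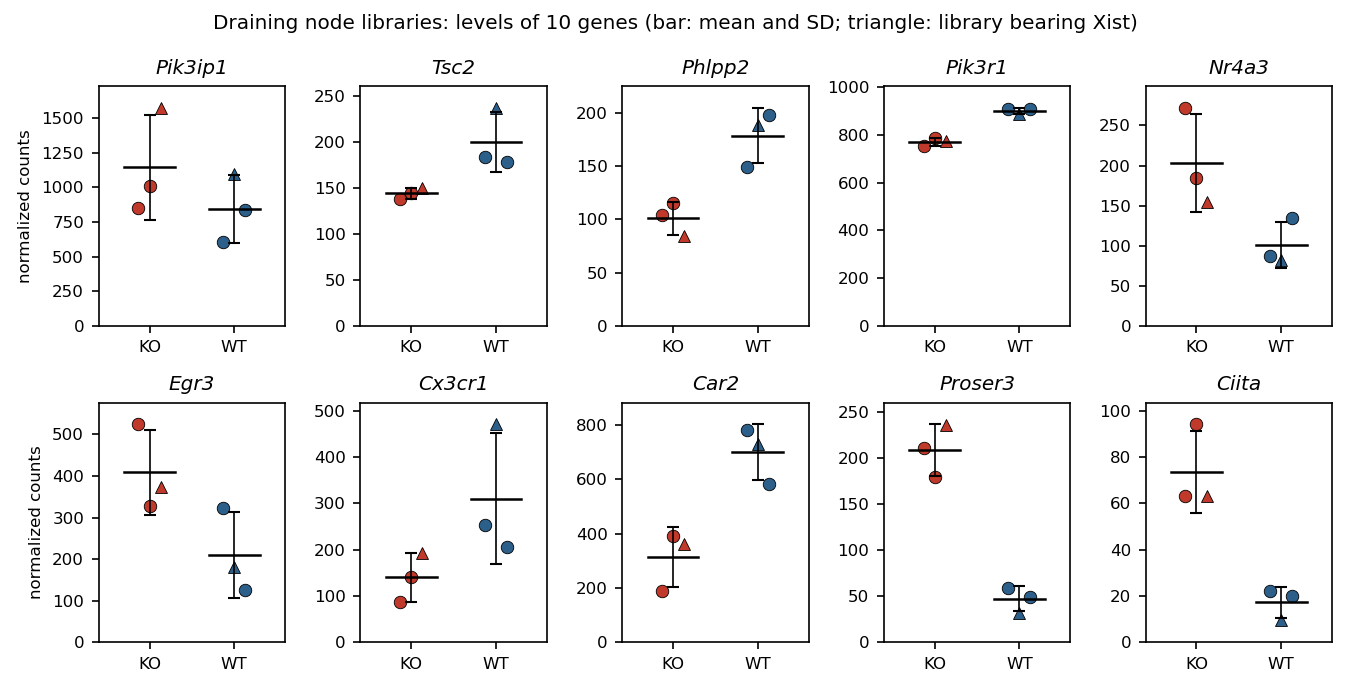
Normalized counts of 10 genes in the 3 KO libraries (left in each panel) and the 3 WT libraries (right), each axis starting at 0; bars are means with SD over 3 libraries, and triangles are the libraries bearing Xist. Pik3ip1 overlaps between the genotypes, while the KO points of Tsc2, Phlpp2, Pik3r1, Cx3cr1 and Car2 lie below the WT points and those of Nr4a3, Egr3, Proser3 and Ciita above them.

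Of 17 FOXO factors and known FOXO targets, 16 were tested, 11 above 0 and 5 below, with a median of 0.11, or -0.02 without the libraries bearing Xist, and 0 calls. Foxo1 had 1297, 957 and 1693 normalized counts in KO libraries, against 1214, 1449 and 1136 in WT libraries. Klf2, which drives the egress receptor gene S1pr1, had 1522, 1622 and 2361 in KO libraries, against 2025, 1317 and 2021 in WT libraries (log2 0.04, SE 0.23). Il7r, the interleukin 7 receptor of resting cells, had 1891, 1356 and 4631 in KO libraries, against 3263, 2640 and 1929 in WT libraries (-0.16, SE 0.41). In each, KO replicate 3 was the highest of the 6. Bcl6, a repressor of effector differentiation, had 103, 104 and 125 in KO libraries, against 54.6, 102 and 25.4 in WT libraries (0.77, SE 0.35, limma adjusted p = 1), with 103 the lowest KO value and 102 the highest WT value.

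Genes of naive and stem-like cells stood a little higher in KO, 17 of 19 above 0 with a median of 0.23 and 0 calls. Lef1, a factor of naive cells, had 2319, 3088 and 5976 normalized counts in KO libraries, against 3088, 2154 and 1440 in WT libraries (log2 0.71, SE 0.37, and 0.34 without the libraries bearing Xist). Bach2, which restrains effector programs, had 120, 92.0 and 372 in KO libraries, against 95, 64.2 and 58.7 in WT libraries (0.98, SE 0.44). Dapl1, a transcript of naive CD8 cells, had 5827, 2513 and 8452 in KO libraries, against 2879, 4510 and 449 in WT libraries (1.45, SE 0.78). These rest on the ends of the groups. KO replicate 3 was the highest library for 14 of the 19 and WT replicate 4 the lowest for 13. The median was -0.02 without KO replicate 3 and 0.07 without WT replicate 4. Without both libraries bearing Xist it was 0.26, with 15 of the 19 above 0, and the difference of Dapl1 was 1.72.

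Of the early genes that the T-cell receptor induces, 24 of 28 were tested, 12 above 0 and 12 below, with a median of -0.02 and 0 calls. Without the libraries bearing Xist, 19 of the 24 lay above 0 with a median of 0.19, and both KO libraries lay above both WT libraries for 10 (41.7%), where 13.3% of all tested genes did so. WT replicate 3 was the highest of the 6 libraries for 11 of the 24, where it was so for 4006 of all 14709 tested genes. Nr4a3 and Egr3 were the 2 of 24 with an unadjusted p under 0.05, both higher in KO, where 0.925% of all tested genes had one on this side. Like the other list members named for their p, they were picked after their values were seen. Nr4a3, an orphan nuclear receptor induced within hours of antigen contact, had 272, 185 and 154 normalized counts in KO libraries, against 86.9, 82.1 and 134 in WT libraries (log2 0.86, SE 0.28, limma unadjusted p = 0.0141, adjusted p = 1). Egr3, a zinc finger factor that curbs activation, had 524, 327 and 374 in KO libraries, against 324, 180 and 125 in WT libraries (0.95, SE 0.33, limma unadjusted p = 0.0189, adjusted p = 1). The groups of both were separate, for Egr3 with 327 as the lowest KO value and 324 as the highest WT value. Of all tested genes, 3.21% had KO libraries above WT libraries. For the other NR4A and EGR genes, Nr4a1 had a difference of -0.07 (SE 0.31), Nr4a2 of -0.10 (SE 0.38), Egr1 of 0.09 (SE 0.44) and Egr2 of 0.41 (SE 0.47), all with overlapping groups. Cd69, an early activation marker that also holds cells in the node, had 1463, 1276 and 2061 in KO libraries, against 918, 1887 and 573 in WT libraries (0.64, SE 0.39).

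Effector genes lay mostly below 0, 24 of 33 tested, with a median of -0.13 and 0 calls. Cx3cr1, the fractalkine receptor of effector CD8 cells, had 87.4, 141 and 193 normalized counts in KO libraries, against 254, 471 and 206 in WT libraries (log2 -1.0, SE 0.35, limma unadjusted p = 0.0213, adjusted p = 1). The highest KO library lay just under the lowest WT library. Granzyme genes varied more within a genotype than between the genotypes. Gzmb, granzyme B, had 2317, 9852 and 3790 in KO libraries, against 3540, 3942 and 11660 in WT libraries (-0.30, SE 0.58), and Gzmk had 327, 1277 and 1181 in KO libraries, against 152, 3072 and 1263 in WT libraries (-0.11, SE 0.95). Nkg7, a granule protein gene with little spread, had 59426, 59366 and 71966 in KO libraries, against 61178, 62130 and 65923 in WT libraries (0.01, SE 0.14). Ifng had 387, 382 and 358 in KO libraries, against 302, 425 and 221 in WT libraries (0.28, SE 0.24), and Tbx21, the T-bet factor, 497, 415 and 436 in KO libraries, against 440, 705 and 735 in WT libraries (-0.43, SE 0.22).

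Inhibitory receptors and exhaustion genes had 13 of 16 below 0 and a median of -0.28, and here the WT libraries disagreed among themselves. WT replicate 3 was the highest of the 6 libraries for 12 of the 16 genes and WT replicate 4 the lowest for 8. Tigit had 62.7, 98.6 and 80.7 normalized counts in KO libraries, against 129, 691 and 51.7 in WT libraries (log2 -0.97, SE 0.70), and Ctla4 had 82.8, 76.7 and 131 in KO libraries, against 96.0, 509 and 50.8 in WT libraries (-0.51, SE 0.64). Pdcd1, which encodes PD-1, had 646, 776 and 394 in KO libraries, against 696, 1225 and 490 in WT libraries (-0.35, SE 0.35), with a difference of 0.27 without the libraries bearing Xist. Without those the median of the list was 0.13, on the other side of 0. For GIMAP genes, GTPases of resting lymphocytes, WT replicate 3 was likewise the highest for 6 of 8, and the median of -0.20 became 0.07 without both.

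Sterol and fatty acid synthesis genes, which the SREBP factors induce in growing cells, had 23 of 27 below 0 with a median of -0.32 and 0 calls. Sqle, the first oxygenation step of sterol synthesis, had 248, 352 and 156 normalized counts in KO libraries, against 369, 420 and 512 in WT libraries (log2 -0.78, SE 0.29, limma unadjusted p = 0.0242, adjusted p = 1). Fdft1, squalene synthase, had 481, 455 and 345 in KO libraries, against 499, 794 and 766 in WT libraries (-0.64, SE 0.23, limma unadjusted p = 0.0224, adjusted p = 1). Sc5d had 1743, 1879 and 1317 in KO libraries, against 2028, 1933 and 2232 in WT libraries (-0.34, SE 0.17). These 3 of 27 had all KO libraries below all WT libraries, a larger share than the 3.35% of all tested genes. WT replicate 4 was the highest library for 21 of the 27 and KO replicate 3 the lowest for 17. Without WT replicate 4 the median was -0.06, and without KO replicate 3 it was -0.14. Leaving out both libraries bearing Xist gave -0.25.

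Medians of other programs of growth also moved with the libraries left out, though not with the same ones throughout. Of 15 glycolysis enzymes and transporters tested, 14 lay below 0 with a median of -0.31, and without the libraries bearing Xist the median was -0.02. Aldoa had 5500, 4334 and 4032 normalized counts in KO libraries, against 4013, 8573 and 6214 in WT libraries (log2 -0.38, SE 0.26). Mitochondrially encoded transcripts had 19 of 20 above 0 with a median of 0.26, or 0.04 without those libraries, and ribosomal protein genes 71 of 78 with a median of 0.14, or 0.05 without them. WT replicate 3 was the lowest library for 67 of the 78 ribosomal protein genes. DNA replication genes had 18 of 26 below 0 (median -0.10) and genes of mitosis 16 of 23 (median -0.10), and Mki67, the proliferation marker, had 11561, 12339 and 9379 in KO libraries, against 13672, 10174 and 12980 in WT libraries (-0.14, SE 0.17). Without each library in turn the median stayed between -0.41 and -0.18 for glycolysis and hypoxia genes together. It stayed between 0.1 and 0.35 for mitochondrially encoded transcripts and between 0.04 and 0.21 for ribosomal protein genes. The sign was not kept for DNA replication (-0.23 to 0.08) and mitosis (-0.18 to 0.05). None of these lists had a called member.

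**Figure D3:**
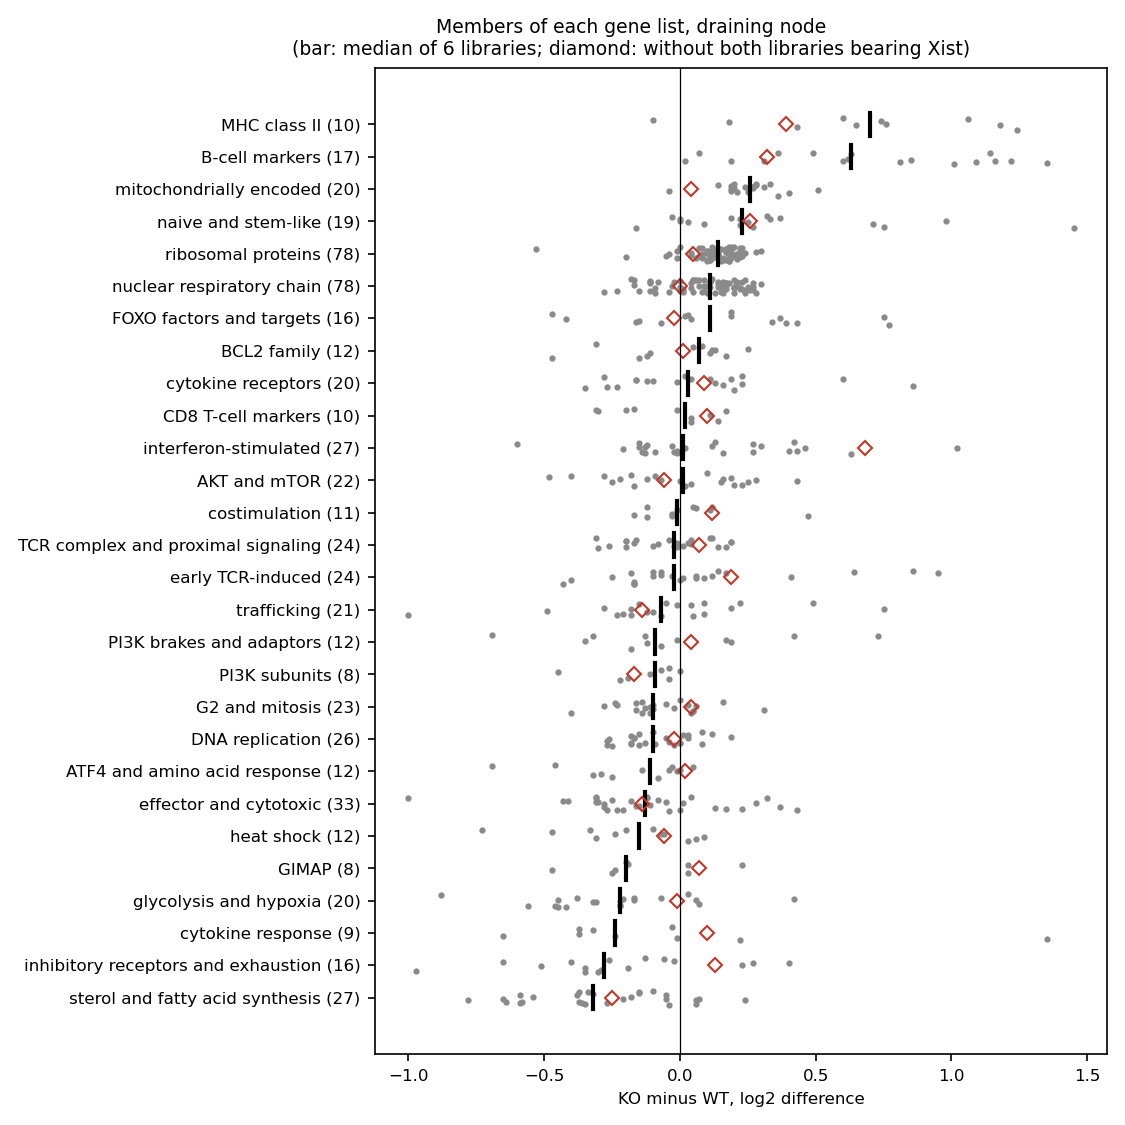
Each grey point is a tested member of the gene list named on the left (number tested in parentheses), placed by its KO minus WT log2 difference; the black bar is the list median over 6 libraries and the red diamond the median without both libraries bearing Xist. Lists with 8 or more tested members are shown; among these, MHC class II genes (0.70) and B-cell markers (0.63) have the highest medians and sterol synthesis the lowest (-0.32), and for interferon-stimulated genes the diamond (0.68) lies far from the bar (0.01).

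Transcripts of B cells made up a small share of every library and lay higher in KO, with no call. All 17 tested of 18 B-cell markers lay above 0, with a median of 0.63 against 0 for all genes; 7 had an unadjusted p under 0.05, where 0.925% of all genes had one on this side, 6 had KO libraries above WT libraries, where 3.21% did, and 0 were called. Ms4a1, which encodes CD20, had 195, 291 and 682 normalized counts in KO libraries, against 157, 136 and 134 in WT libraries (log2 1.14, SE 0.39, limma unadjusted p = 0.0184, adjusted p = 1), and its difference was 0.64 without the libraries bearing Xist. Bank1, a B-cell scaffold, had 90.5, 90.9 and 298 in KO libraries, against 63.6, 41.4 and 21.0 in WT libraries (1.35, SE 0.45). Igkc, the kappa light chain constant region, had 2449, 10035 and 7538 in KO libraries, against 3574, 1697 and 2689 in WT libraries (1.16, SE 0.49). Other markers hardly differed. Ighm, an abundant one, had 5070, 3809 and 6001 in KO libraries, against 5745, 4784 and 3654 in WT libraries (0.07, SE 0.22). Cd22 had a difference of 0.02 (SE 0.47). KO replicate 3 was the highest for 14 of the 17. The markers summed to 0.0416%, 0.071% and 0.0803% of all values in KO libraries and to 0.0475%, 0.0391% and 0.0356% in WT libraries, so KO replicate 1 lay within the WT range. Leaving out each library in turn gave medians from 0.38 to 0.92, and leaving out both libraries bearing Xist 0.32. In such bulk values, more cells of a type and more RNA per cell cannot be told apart.

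MHC class II genes, which B cells and other antigen-presenting cells express and mouse T cells hardly do, lay on the same side as the B-cell markers. Of 10 tested, 9 lay above 0, with a median of 0.70, and 0 were called. An unadjusted p under 0.05 was found for 6, all higher in KO, where 0.925% of all tested genes had one on this side. H2-Aa had 959, 1442 and 2034 normalized counts in KO libraries, against 910, 468 and 681 in WT libraries (log2 1.06, SE 0.31, limma unadjusted p = 0.00853, adjusted p = 1), and its difference was 0.56 without the libraries bearing Xist. H2-Ob, a class II chaperone subunit of B cells, had 192, 268 and 540 in KO libraries, against 96.0, 120 and 152 in WT libraries (1.18, SE 0.36). Ciita is 1 of the 10 and of the 6, and was already named above for its small p. It had 63.4, 94.2 and 63.4 in KO libraries, against 22.2, 9.75 and 20.1 in WT libraries (1.24, SE 0.27). Its difference without the libraries bearing Xist was 1.17. The invariant chain gene Cd74 overlapped, with 2851, 2504 and 5008 in KO libraries, against 2915, 3481 and 1440 in WT libraries. Ly86 had 65.8, 128 and 213 in KO libraries, against 22.2, 26.8 and 42.9 in WT libraries. Without the libraries bearing Xist the class II median was 0.39. The part of B-cell RNA in the differences of Ly86, Ciita and the other genes of the class II list was not tested.

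Markers of other cells were scarce. Of 16 macrophage and monocyte markers, 3 reached the level for testing (Cd68, Apoe and Ccr2, the last a chemokine receptor gene that T cells also express), the list summed to 0.00396% to 0.0132% of all values in KO and 0.00824% to 0.0143% in WT, and Cd14 and Ms4a7 were listed at 0 in all 6 libraries. Dendritic-cell markers summed to 0.0011% to 0.00216% in KO and 0.00152% to 0.00196% in WT, with Clec9a listed at 0 throughout. Neutrophil and red-cell markers had no member at 1 CPM. Of 3 gamma-delta T-cell genes tested, Trdc and Trgc1 stood out in 1 library. Trdc had 18.6, 12 and 248 normalized counts in KO libraries, against 17.2, 0 and 7.88 in WT libraries. Trgc1 had 20.9, 17.5 and 182 in KO libraries, against 1.01, 11.4 and 8.76 in WT libraries. Both were high in KO replicate 3, the library also highest for most B-cell and naive-cell genes. The other tested gene, Trgc2, had 10.8, 8.76 and 128 in KO libraries, against 43.4, 30.9 and 107 in WT libraries (log2 -0.5, SE 0.61). It was thus nearly as high in WT replicate 4 as in KO replicate 3.

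Among the lists with 8 or more tested members, the WT libraries lay furthest apart in interferon-stimulated genes, the antiviral program that type I interferon switches on through a complex of STAT factors and IRF9. That complex binds the interferon-stimulated response element, spelled here GAAANNGAAA. The RefSeq promoter table (GRCm38.p6) holds 19 of the 28 genes of the list, and in windows from 250 bases before to 50 after the start, 13 of these 19 (68.4%) hold the element on either strand, against 1079 of 27025 genes (3.99%). The 250 bases before the start of 3 of them are shown because these genes carry the pattern described next; capitals mark each match, matches could overlap, and a match describes letters only.
Ifit1, chr19:34640639-34640888, plus strand: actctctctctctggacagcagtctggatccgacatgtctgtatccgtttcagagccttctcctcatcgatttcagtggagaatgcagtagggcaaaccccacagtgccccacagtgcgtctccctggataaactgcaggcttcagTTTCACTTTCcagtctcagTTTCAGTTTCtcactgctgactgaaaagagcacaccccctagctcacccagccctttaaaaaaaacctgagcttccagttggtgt
Ifit3, chr19:34583279-34583528, plus strand: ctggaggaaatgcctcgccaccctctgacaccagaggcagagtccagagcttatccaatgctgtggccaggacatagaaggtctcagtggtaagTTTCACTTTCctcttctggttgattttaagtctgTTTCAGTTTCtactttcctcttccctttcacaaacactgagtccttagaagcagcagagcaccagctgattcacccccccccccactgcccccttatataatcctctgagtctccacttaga
Rsad2, chr12:26456453-26456702, minus strand: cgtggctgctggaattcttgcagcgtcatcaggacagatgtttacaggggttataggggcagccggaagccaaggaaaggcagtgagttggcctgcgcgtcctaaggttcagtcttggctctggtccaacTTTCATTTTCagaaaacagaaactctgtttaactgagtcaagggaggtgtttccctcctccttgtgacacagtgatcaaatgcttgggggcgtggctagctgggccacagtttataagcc
In all 3 the match reads in reverse, as TTTCNNTTTC, and begins 104 and 85 bases before the start in Ifit1, 156 and 122 before it in Ifit3 and 120 before it in Rsad2.

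Ifit1, which binds foreign RNA caps, had 900, 485 and 593 normalized counts in KO libraries, against 219, 2499 and 168 in WT libraries. Ifit3, its partner, had 1045, 725 and 728 in KO libraries, against 442, 3852 and 115 in WT libraries. Rsad2, the antiviral enzyme viperin, had 79.7, 103 and 8.64 in KO libraries, against 0, 380 and 0 in WT libraries. In all 3 the KO libraries lay below WT replicate 3 and above WT replicates 1 and 4, although KO replicate 3 was low for Rsad2. Rtp4, a chaperone of receptors, had 1238, 1432 and 1867 in KO libraries, against 341, 4642 and 218 in WT libraries (log2 1.02, SE 0.94), and Irf7, the factor that amplifies interferon production, 281, 245 and 243 in KO libraries, against 112, 1421 and 90.2 in WT libraries (-0.01, SE 0.83). These genes were picked after their values were seen.

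WT replicate 3 was the highest of the 6 libraries for 26 of the 27 tested genes, and WT replicate 4 the lowest for 17. The median deviation of the list from the 6-library mean was 0.14, 0.01 and 0.12 in KO libraries, against -0.37, 1.15 and -0.85 in WT libraries, so the KO libraries were close together and the WT libraries spread over both sides of them. The genotype difference of the list depended on which WT library was counted. Its median was 0.01 over 6 libraries, 0.79 without WT replicate 3 and -0.37 without WT replicate 4. Among the 4 libraries without Xist, both KO libraries lay above both WT libraries for 20 of the 27 (74.1%), where the same holds for 13.3% of all tested genes. With all 6, 0 members were called, and 1 had an unadjusted p under 0.05, Ly6a, lower in KO with 7913, 12556 and 8325, against 10047, 17162 and 16886 in WT libraries (log2 -0.60, SE 0.25, limma adjusted p = 1). Ifitm1 and Ifitm2, membrane proteins that interferon also induces but which were not on the list, ran the other way: Ifitm1 had 6975, 8700 and 7620 in KO libraries, against 21899, 970 and 14129 in WT libraries.

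**Figure D4:**
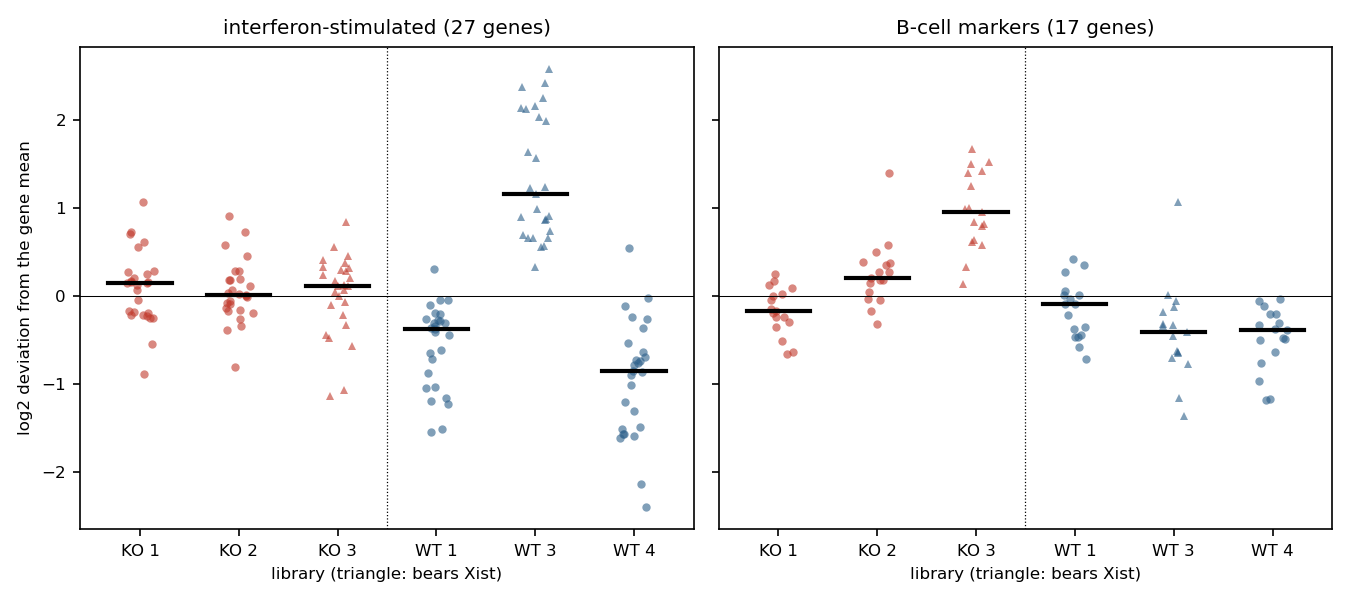
For each tested member of the interferon-stimulated list (left) and the B-cell markers (right), the log2 deviation of each library from that gene's mean over the 6 libraries; KO libraries are red, WT libraries blue, triangles bear Xist and bars are medians. On the left WT replicate 3 sits at a median of 1.15, above all KO libraries, and WT replicate 4 at -0.85, below them; on the right KO replicate 3 is highest at 0.95.

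**Figure D5:**
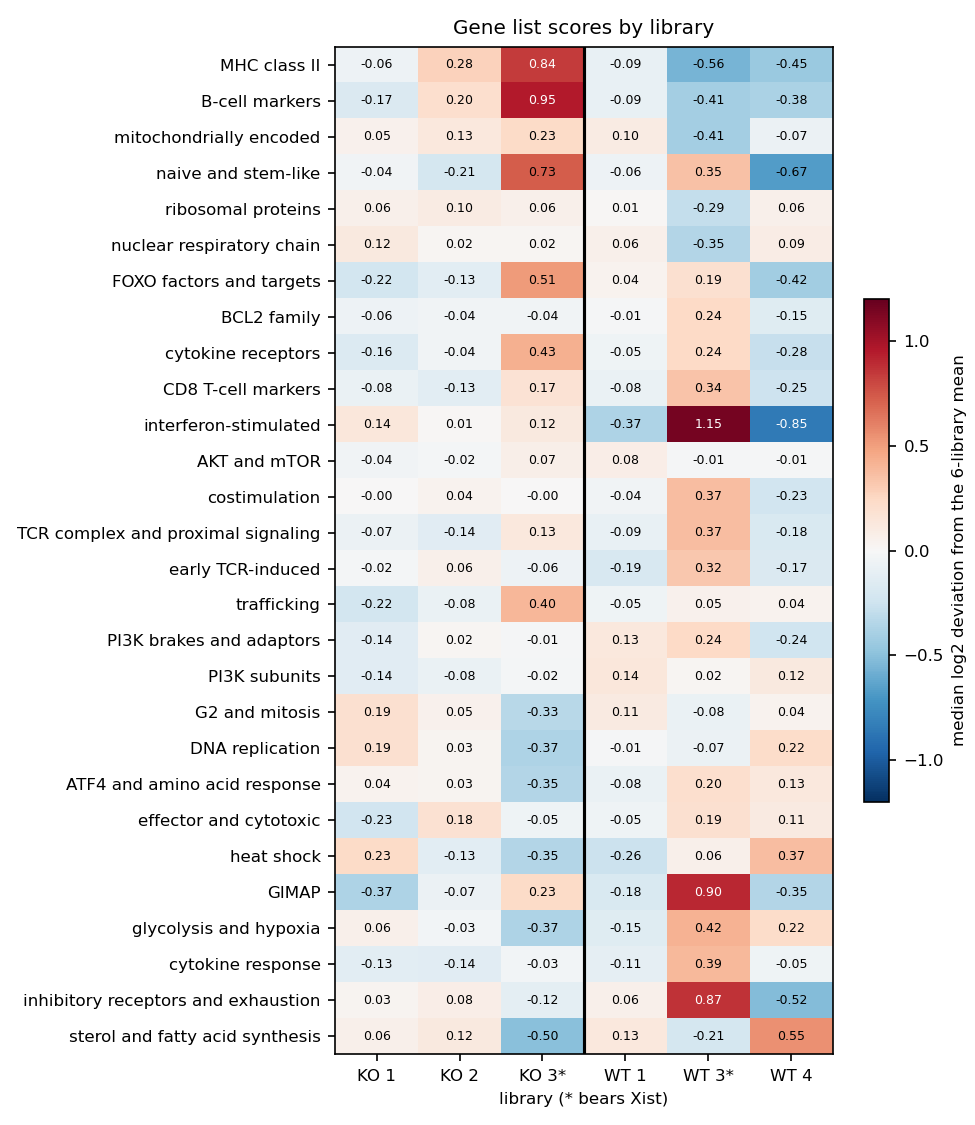
Median log2 deviation of each gene list (rows, ordered by KO minus WT difference) from the 6-library mean in the 3 KO libraries (left) and the 3 WT libraries (right of the line); asterisks mark libraries bearing Xist. Lists with 8 or more tested members are shown. The values farthest from 0 lie in WT replicate 3 (interferon-stimulated genes 1.15, GIMAP 0.90, inhibitory receptors 0.87), KO replicate 3 (B-cell markers 0.95, MHC class II 0.84) and WT replicate 4 (interferon-stimulated genes -0.85).

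Whether the genotype difference in TDLN differed from that in tumor was tested in a fit of all 12 libraries as the difference in TDLN minus the difference in tumor. Of 16065 genes, limma called 0, and 465 (2.89%) had an unadjusted p under 0.05. A call missed does not show that the 2 tissues responded alike.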

How the data were processed

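The 6 draining node libraries were polyA RNA prepared with a stranded Illumina kit, per the labels' protocols. The deposited signal values are normalized counts, per the file headers 1 column per library. GRCm38 and GRCm39 are named in the submitters' processing notes without their roles, and the sources used here name no aligner or counter. Only 87.5% to 88.6% of values under 50 reads were whole multiples of 1 read, within 0.02 reads, so no model of whole counts was used. The rest was computed here with limma 3.58.1 in R 4.3.3: group means, an intensity trend, two-sided tests, Benjamini-Hochberg adjustment over all tested genes, threshold 0.05, with 4 residual and 4.43 prior degrees of freedom. Other steps used Python 3.11.15, numpy 2.4.6, pandas 2.3.3 and matplotlib 3.10.9. The fit was tested on simulated data.

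Of 761 list entries, 757 were found, 697 different genes. The members and lists were chosen with earlier results of these data known. The rule for named genes takes Pik3ip1, the 10 genes of smallest p in each direction (predicted, mitochondrial and antigen-receptor genes skipped), the 4 highest members of each list and a T-cell panel; other list members were chosen after their values were seen. Some genes that the rule takes are not reported here. Promoters and start sites are from RefSeq (GRCm38.p6) and positions from GENCODE M21. The replicate numbers 1 and 3 are shared by the genotypes, but the labels give them no meaning, so libraries were unpaired. Fits were repeated under 20 other settings, of which those for Xist were chosen after seeing the data.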

Additional observations from a re-analysis of the deposited data

How the results depend on the processing

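For KO over WT, 0 genes were called by limma under each setting tried except 2. Without WT replicate 3 it called 1, the long noncoding RNA gene Gm42047 (925, 635 and 758 normalized counts in KO libraries, against 58.6, 493 and 77.9 in WT libraries, chosen after its values were seen), so the count ranged from 0 to 1 over leaving out each library. With the replicate block it called 23, 13 higher and 10 lower in KO, on 1 residual degree of freedom. Proser3, Zfp951, Nrip2, Car2 and Ighd were the named genes among them. The prior degrees of freedom were estimated as infinite in this fit, so the spread came from the trend over all genes, not from each gene. A number held by only 1 genotype adds nothing to the difference in this fit, which rests on the libraries numbered 1 and 3. Deviations of libraries with the same number correlated at -0.057 for number 1 and 0.236 for number 3. The labels give the numbers no meaning, only 2 are shared, and both libraries numbered 3 bear Xist, so what the block takes out cannot be told apart from that. For the interaction, 1 gene was called without a filter on low values, Mexis (adjusted p = 0.0267), and 0 otherwise.

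The main count of 277 genes at an unadjusted p under 0.05 was 123 with all 12 libraries in the fit, 599 with no filter, 148 at a minimum of 5 CPM, 525 with sample weights, 440 with Xist as a term and 467 without both libraries bearing Xist. Without each library in turn it ranged from 238 to 609, the highest without WT replicate 1 and 457 without WT replicate 3. Rescaled to a common total, 114 were higher and 187 lower in KO, against 136 and 141 in the main fit, and with quantile normalization 146 and 121. The cause of these shifts was not tested. Of 37 list medians, 12 kept their sign without each library in turn. At depths of 22.2 M to 30.9 M reads, 61.6% of intervals at 1 to 10 CPM lay within 2-fold on the scale with the pseudocount. For many low genes the interval thus reaches such a difference, and for more of them a 2-fold difference in the normalized counts themselves. An interval within 2-fold on that scale does not mean that a 2-fold difference would have been called, at any level. Proser3, at a log2 difference of 1.72 (SE 0.25), had a limma adjusted p of 0.9.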

Other observations

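The antigen-receptor segments, which the naming rule skips, differed from library to library. Trbv12-2 was the leading beta variable segment in KO replicate 1 with 58.3% and in KO replicate 2 with 44.6% of all beta variable values, and in WT replicate 1 with 62.9% and WT replicate 3 with 30.6%. In KO replicate 3 and WT replicate 4 the leader was Trbv31, with 53.2% and 82.9%. The leading 3 segments together held 81.1%, 75.2% and 69.3% in KO libraries and 81.4%, 66.7% and 91.7% in WT libraries, so each library was dominated by few segments and both leaders occurred in both genotypes. Alpha variable segments led with 18.1% for Trav3d-3, 50.7% for Trav16n and 13.5% for Trav7-6 in KO libraries, and with 14.2% for Trav7d-2, 9.52% for Trav7d-4 and 26% for Trav6n-7 in WT libraries. Alpha segments are near-identical copies among which reads can be split, so their shares are uncertain.

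The 87 immunoglobulin segments and constant regions in the table summed to 0.0417%, 0.0709% and 0.0825% of all values in KO libraries and to 0.048%, 0.0343% and 0.0363% in WT libraries. Il21, the cytokine of follicular helper cells, was listed at 0, 0 and 136 normalized counts in KO libraries, against 30.3, 243 and 0 in WT libraries, and was highest in the 2 libraries bearing Xist. Ltb, lymphotoxin beta, had 2023, 1249 and 5170 in KO libraries, against 1832, 8736 and 1140 in WT libraries, and was also highest in those 2; both genes were picked after their values were seen.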
